A study of Mus musculus with 10 samples.

Results

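Myc and 9 further genes of the Max network were followed in Emu-myc lymphoma cells that lack Suv39h1, with and without Adriamycin (ADR, the DNA-damaging drug doxorubicin). The 10 genes are Myc, Mycn, Max, Mxd1, Mxd3, Mxd4, Mxi1, Mnt, Mga and Mlx. They were taken by gene symbol from the platform annotation, among 18193 genes with a named probe set. All 10 passed the filter on low signals, which left 11472 genes for the test. Where a gene had several probe sets, the brightest by its average across all 10 arrays was used. In all 26 probe sets carry these names. The treated group held 5 arrays of cells kept for 5 days in 0.05 µg/ml ADR, and the untreated group held 5 arrays of the same lymphomas without drug. Each of lymphoma_5783, lymphoma_7890, lymphoma_9250, lymphoma_1032 and lymphoma_4936 gave 1 array of either kind, so the comparison is paired.

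Cells of both groups came from lymph nodes of mice of the genotype Emu-myc;Suv39h1-/-, in which a Myc transgene is active throughout the B-cell lineage. Both groups also carried a retroviral Bcl2 (vector MSCVpuro), had been selected with puromycin, and grew on gamma-irradiated NIH 3T3 fibroblasts, which are mouse cells and can add RNA of their own. Every group therefore holds the transgene, the deletion and Bcl2, and no array of Suv39h1-proficient cells was used here. The design asks what ADR does to the transcripts of Bcl2-protected lymphomas without Suv39h1. No probe set was named for Suv39h1, so the deletion was not checked. Bcl2 had signals between 9.10 and 11.76 in ADR cells and between 9.91 and 11.76 in untreated cells, and whether its probes read the retroviral copy was not tested. The 10 B-cell markers with a probe set, Cd79a, Pax5 and Ebf1 among them, had a median signal of 8.20 to 10.25 on ADR arrays and of 8.98 to 10.33 on untreated arrays. Ms4a1 of that list was low in lymphoma_1032, at 4.79 with ADR and 5.09 untreated. On the arrays of the other lymphomas it was 7.87 or more. The ADR array of lymphoma_1032 had a median signal of 4.15, below the 4.43 to 4.50 of the 9 other arrays. Its highest signal was 15.63, above the 14.04 to 14.45 of those arrays. In bulk RNA, fewer cells of a type and less RNA per cell cannot be told apart.

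Myc is a transcription factor of the basic helix-loop-helix leucine zipper class that binds the E-box sequence CACGTG as a dimer with Max. Max also pairs with the Mxd proteins, Mxi1, Mnt and Mga, whose dimers bind the same sequence and repress, the Mxd proteins, Mxi1 and Mnt through Sin3 and histone deacetylases. Mlx is a Max-like partner for Mondo proteins and for some of the same repressors. In B-cell lymphomas driven by Myc the balance between these dimers is of interest because Max itself is shared by both sides.

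Windows of 300 bases around the transcription start, 250 before and 50 after, were at hand for 9 of the 10 genes, and for Mxi1 at 3 starts (RefSeq, GRCm38.p6). No window was used for Myc. CACGTG, which reads the same on both strands, was found in 4 of the 9 genes, Max, Mxd4, Mnt and Mlx, and in 7.15% of all 32851 windows of this length. The first is a count of genes, which had 11 windows, and the second a share of windows, so no enrichment is read. Of the genes with CACGTG, the windows of Max, Mxd4 and Mnt are shown for the following reasons. Max had the order of lymphomas of Myc in untreated cells, Mxd4 had the largest average difference of the 10 genes, and Mnt was higher with ADR in all 5 lymphomas. Mxi1, lower with ADR in all 5 lymphomas, had no CACGTG at any of its 3 starts, and its windows are not shown. A link between the motif and the differences with ADR was not tested. Each is written 5′ to 3′ on the strand of the gene, with CACGTG in capitals. The Max window is chr12:76962199-76962498 on the minus strand, with the E-box starting 3 bases before the annotated start. The Mxd4 window is chr5:34187661-34187960 on the minus strand, with the E-box starting 219 bases before it. The Mnt window is chr11:74830674-74830973 on the plus strand, with the E-box starting 123 bases before it. A match in a window is a description of the sequence, and binding was not measured.
Max: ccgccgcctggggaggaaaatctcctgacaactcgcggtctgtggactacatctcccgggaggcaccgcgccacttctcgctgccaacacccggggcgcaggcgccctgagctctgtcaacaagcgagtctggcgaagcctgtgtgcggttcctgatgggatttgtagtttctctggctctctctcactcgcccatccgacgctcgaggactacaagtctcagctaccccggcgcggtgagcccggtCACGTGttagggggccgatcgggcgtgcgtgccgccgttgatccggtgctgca
Mxd4: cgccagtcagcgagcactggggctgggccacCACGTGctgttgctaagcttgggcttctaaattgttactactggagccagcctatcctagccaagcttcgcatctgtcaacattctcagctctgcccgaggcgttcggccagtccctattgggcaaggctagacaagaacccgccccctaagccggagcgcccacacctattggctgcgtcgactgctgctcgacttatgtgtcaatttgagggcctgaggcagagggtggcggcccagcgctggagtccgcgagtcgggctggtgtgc
Mnt: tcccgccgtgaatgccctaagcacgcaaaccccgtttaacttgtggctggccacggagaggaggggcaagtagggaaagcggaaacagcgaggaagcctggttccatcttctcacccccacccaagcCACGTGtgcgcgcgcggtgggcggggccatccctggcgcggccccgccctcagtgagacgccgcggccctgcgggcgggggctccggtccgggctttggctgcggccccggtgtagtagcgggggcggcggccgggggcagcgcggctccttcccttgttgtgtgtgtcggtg

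No gene of the network passed the threshold. In the paired limma fit over all 11472 genes, 0 of the 10 members rose and 0 fell at an adjusted p (Benjamini-Hochberg) below 0.05, and over all genes the share called was 0.0%. Adjusted p of the members ran from 0.565 for Mxd4 to 0.909 for Mga. At an unadjusted p below 0.05 there were 2 members, Mxd4 with a higher and Mxi1 with a lower signal in ADR cells, against 973 of all genes, or 8.48%, with 3.97% higher and 4.52% lower. With 10 members, a count of 2 is not read as departing from that share. On average 6 members were higher and 4 lower with ADR, where 44.8% of all genes were higher and 55.2% lower. The median of the 10 average changes was 0.07, beside -0.02 over all genes tested, both as log2 differences of ADR minus untreated. None of the 10 had ADR and untreated ranges that were apart, as 0.357% of all genes did, and none reached 2-fold on average, as 0.462% did.

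**Figure D1:**
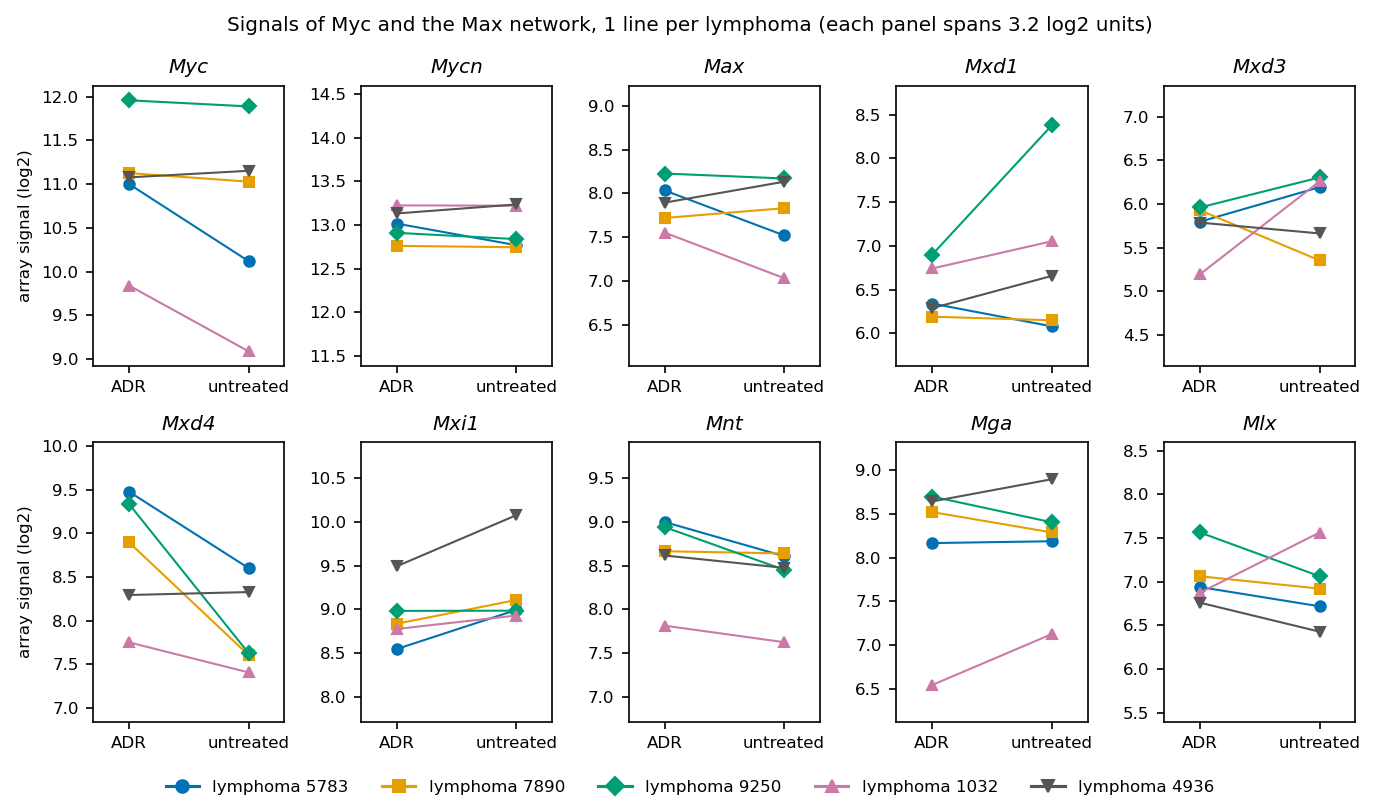
Array signal (log2) of each of the 10 genes in ADR cells (left) and untreated cells (right), with 1 line for each of the 5 lymphomas and the same vertical span of log2 units in every panel. Mxd4 lines slope down toward untreated in 4 of 5 lymphomas, and the spread of Myc between lymphomas exceeds its differences within them.

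Myc itself, the transgene and driver of these lymphomas, varied more between lymphomas than with the drug. Its signal in ADR cells was 9.84 in lymphoma_1032, 11.00 in lymphoma_5783, 11.13 in lymphoma_7890, 11.08 in lymphoma_4936 and 11.96 in lymphoma_9250. In untreated cells it was 9.09 in lymphoma_1032, 10.12 in lymphoma_5783, 11.03 in lymphoma_7890, 11.15 in lymphoma_4936 and 11.89 in lymphoma_9250. Myc was highest in lymphoma_9250 and lowest in lymphoma_1032 in both conditions, and the groups overlapped. The mean was 11.00 ± 0.76 in ADR cells and 10.66 ± 1.08 in untreated cells (SD, n = 5 each), and the untreated lymphomas spanned 2.80 log2 units. ADR minus untreated was 0.88 in lymphoma_5783 and 0.75 in lymphoma_1032, and lay between -0.08 and 0.10 in the other lymphomas. The difference sat in the lymphomas with the lowest untreated Myc. The untreated signal is itself part of that difference, so a low one raises it, and a link between them was not tested. The Myc difference averaged 0.35 ± 0.44 (SD, n = 5), a 1.27-fold higher signal, with a 95% interval of -0.06 to 0.75 and an adjusted p of 0.599 in limma. The exact sign-flip permutation test over the pairs gave a two-sided p of 0.188, where 0.0625 is the smallest that 5 pairs allow. Whether the probe set reads the transgene, the endogenous gene or both was not tested.

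Max, the obligate partner, followed the same order of lymphomas as Myc in untreated cells. In ADR cells Max had signals of 7.55 in lymphoma_1032, 8.03 in lymphoma_5783, 7.72 in lymphoma_7890, 7.89 in lymphoma_4936 and 8.23 in lymphoma_9250. Untreated cells gave 7.03 in lymphoma_1032, 7.52 in lymphoma_5783, 7.83 in lymphoma_7890, 8.13 in lymphoma_4936 and 8.17 in lymphoma_9250. From lowest to highest, untreated Myc and Max both ran lymphoma_1032, lymphoma_5783, lymphoma_7890, lymphoma_4936 and lymphoma_9250. That order was held by 134 of the 11472 genes, or 1.17%, when Myc is counted. It was read from these same data, so the share is a description and not a test. Untreated Max was close in lymphoma_4936 and lymphoma_9250, at 8.13 and 8.17. With ADR only the ends of that order held, lymphoma_1032 lowest and lymphoma_9250 highest for both genes. The Max difference was 0.52 in lymphoma_1032, 0.51 in lymphoma_5783 and between -0.24 and 0.06 elsewhere, with a mean of 0.15 ± 0.35 (SD, n = 5) and an adjusted p of 0.768. The Max mean was 0.06 without lymphoma_5783, 0.05 without lymphoma_1032 and 0.25 without lymphoma_4936. A difference above 0.5 in both lymphoma_5783 and lymphoma_1032 was thus present in Myc and in Max, and in 3.21% of all genes. Max lay just above that cut. After quantile normalization Max differed by 0.43 in lymphoma_5783, below the cut, and by 0.68 in lymphoma_1032. The pattern was read from these same data, so a link between Myc and Max was not tested by that share.

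Macrophage, fibroblast and neutrophil markers had their largest median differences with ADR in the same lymphomas, lymphoma_5783 and lymphoma_1032. The tested macrophage markers, 11 of 16 listed, had a median difference of 1.83 in lymphoma_5783 and 1.06 in lymphoma_1032, against -0.21 to 0.14 in the other lymphomas. All 11 were higher on average, while C1qa, C1qb, C1qc, Mrc1 and Cd163 stayed below the filter. Those of smallest p, Mpeg1 and Lyz2, differed by 1.14 and 1.04 in lymphoma_4936, where Myc and Max were lower with ADR. The median of the macrophage list there was 0.05. The 16 macrophage markers summed to between 75.9 and 129.4 log2 units over the ADR arrays and to between 73.6 and 130.0 over the untreated arrays. The 8 tested fibroblast markers, which NIH 3T3 cells could supply, had median differences of 0.85 and 0.34 in lymphoma_5783 and lymphoma_1032. In the other lymphomas the medians were -0.15 to 0.15. Col3a1, Thy1, Pdgfra, Pdgfrb, Postn and Lum stayed below the filter. Of those 8, 6 were higher and 2 lower on average, and the genes of smallest p were the fibronectin gene Fn1, higher in all 5 lymphomas at 0.66 ± 0.45, and the collagen gene Col1a1, lower in all 5 at -0.43 ± 0.13. Over 14 fibroblast markers the sums lay between 66.7 and 92.2 log2 units on ADR arrays and between 67.0 and 87.3 on untreated arrays. The 4 tested neutrophil markers, 2 higher and 2 lower on average, had medians of 0.54 in lymphoma_5783 and 1.33 in lymphoma_1032. In the other lymphomas the medians were -0.12 to 0.23. S100a8, S100a9, Ltf, Camp, Ngp, Elane, Mpo and Cxcr2 stayed below the filter. Over 12 neutrophil markers the sums lay between 49.1 and 75.7 log2 units on ADR arrays and between 49.1 and 67.1 on untreated arrays. T-cell markers had medians of 0.30 in lymphoma_5783 and -0.33 in lymphoma_1032, and B-cell markers had -0.15 and -0.55. The part of these cells in the Myc and Max differences was not tested.

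**Figure D2:**
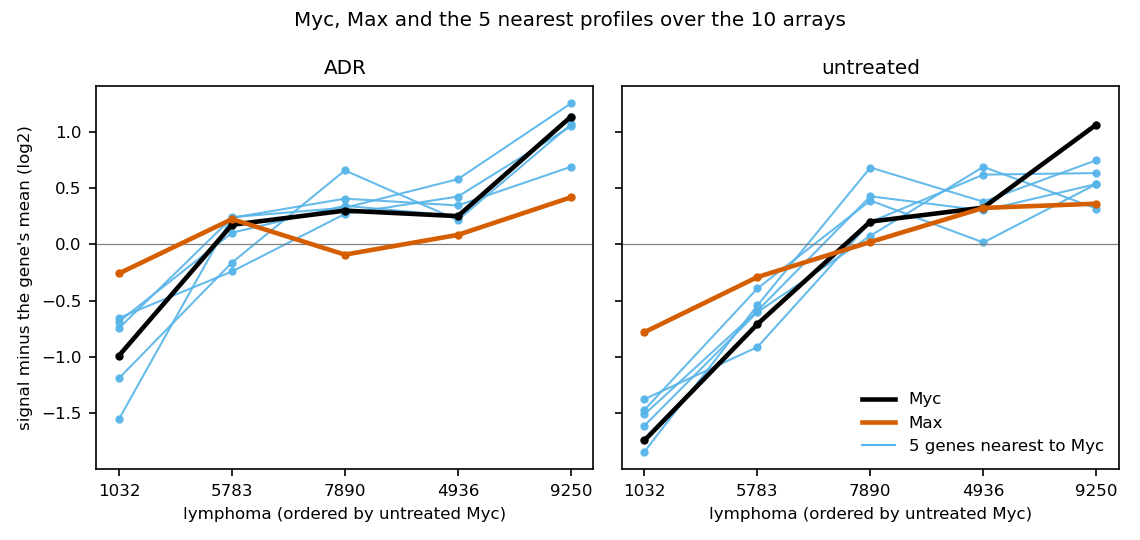
Signal of Myc (black), Max (orange) and the 5 genes nearest to Myc (blue) minus each gene's mean over the 10 arrays (log2), for ADR arrays (left) and untreated arrays (right), with lymphomas ordered by untreated Myc. Max, at a smaller amplitude, is lowest in lymphoma_1032 and highest in lymphoma_9250 in both panels, as Myc is. On ADR arrays the lymphomas between those ends run in the opposite order for Myc and Max.

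Likeness to Myc was measured as the root mean square difference of log2 signals over the 10 arrays, after each gene was centred on its own mean. The 5 arrays of a condition come from the same 5 lymphomas as those of the other, so these are not 10 independent points. Closest among 11471 genes were Mars2, a mitochondrial methionyl-tRNA synthetase with low mean signals of 4.27 in ADR and 4.04 in untreated cells, at 0.256, and Rcl1, which acts in ribosomal RNA processing, at 0.277. Qtrt2, a subunit of the enzyme that places queuine in tRNA, followed at 0.288, then Zfp566, a zinc finger gene, at 0.290 and Pus7l, a pseudouridine synthase family gene, at 0.294. A flat profile would lie at 0.851, and 43.4% of genes were nearer than that. Within the network Mga was nearest at 0.521, then Max at 0.534 and Mnt at 0.590, which put Max behind 2.82% of all genes. Mxd1, Mxd3, Mxi1, Mlx and Mycn lay beyond the flat profile, and Mxd4 was close to it at 0.836.

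Mycn encodes N-Myc, which in mice can stand in for Myc in many settings and is usually low where Myc is high. Its 3 probe sets disagreed so widely that the level of the gene is not settled by these arrays. The one chosen by its mean had signals between 12.76 and 13.22 in ADR cells and between 12.74 and 13.23 in untreated cells. The other 2 averaged 4.31 and 3.71 in ADR cells and 4.67 and 3.73 in untreated cells, near the filter at 4.43. What the bright probe set reads was not tested. Its difference was 0.05 ± 0.13 (SD, n = 5) with a 95% interval of -0.20 to 0.29, and the groups overlapped. The probe set with the middle mean was lower in 4 of 5 lymphomas, with a mean difference of -0.37.

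Among the repressors, Mxd4 stood furthest from no change. Mxd4 (also called Mad4) pairs with Max and is known from mouse tissues as a gene of cells that leave the cycle and differentiate. In ADR cells its signal was 7.75 in lymphoma_1032, 9.48 in lymphoma_5783, 8.90 in lymphoma_7890, 8.29 in lymphoma_4936 and 9.33 in lymphoma_9250. In untreated cells it was 7.41 in lymphoma_1032, 8.60 in lymphoma_5783, 7.61 in lymphoma_7890, 8.33 in lymphoma_4936 and 7.63 in lymphoma_9250. The signal was higher with ADR in 4 lymphomas and about equal in lymphoma_4936, and the groups overlapped because untreated lymphoma_5783 and lymphoma_4936 lay above treated lymphoma_1032. ADR minus untreated was 1.71 in lymphoma_9250, 1.29 in lymphoma_7890, 0.87 in lymphoma_5783, 0.34 in lymphoma_1032 and -0.03 in lymphoma_4936. The mean was 0.84 ± 0.70 (SD, n = 5), or 1.79-fold, with a 95% interval of 0.25 to 1.42. The unadjusted p of limma was 0.0115 and the adjusted p 0.565, with an exact sign-flip permutation p of 0.125. Of all genes tested, 0.567% had a larger average difference.

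Of the 3 other probe sets of Mxd4, the brighter 2 had a mean difference near that of the first. The next brightest pair differed by 0.83 ± 0.69 and 0.66 ± 0.86 (SD, n = 5), with lymphoma_9250 highest at 1.79 and 1.78. The brighter of these was higher with ADR in all 5 lymphomas and the dimmer in 4, with lymphoma_1032 at -0.46. The dimmest, with a mean signal of 4.23 near the table's median, differed by 0.03 ± 0.27 and was lower in 3 of 5 lymphomas. In lymphoma_7890 and lymphoma_9250 the Mxd4 difference was 1.29 and 1.71 beside a Myc difference of 0.10 and 0.07, whereas in lymphoma_5783 the differences were 0.87 and 0.88, and in lymphoma_1032 Myc differed more, at 0.75 beside 0.34.

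**Figure D3:**
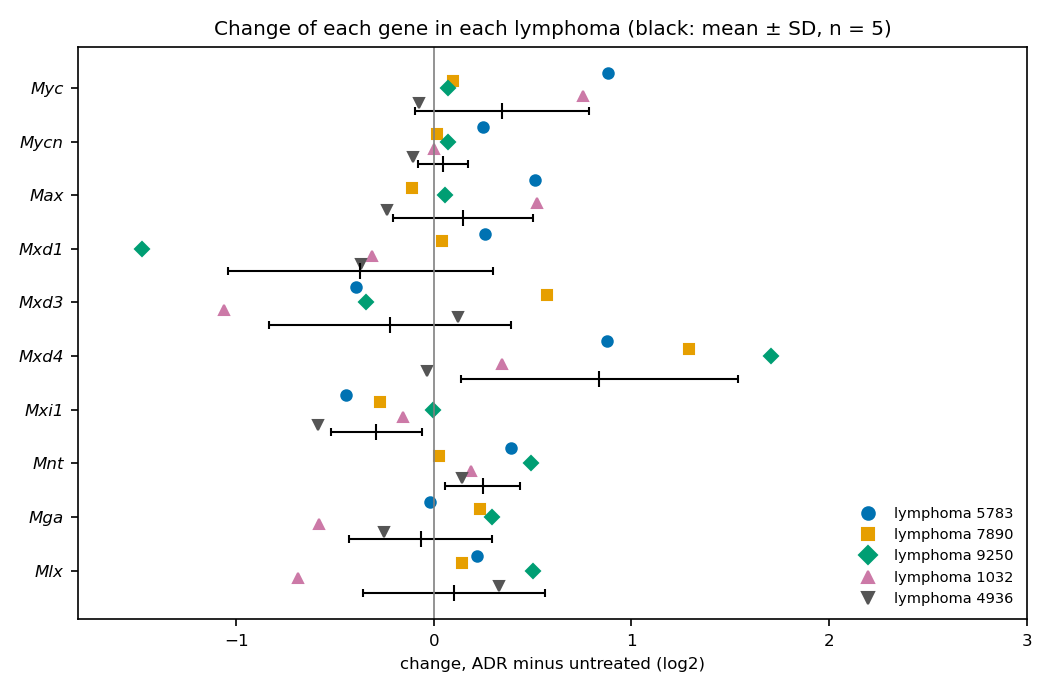
Difference of ADR minus untreated (log2) of the 10 genes, with 1 coloured symbol per lymphoma and the mean ± SD over 5 lymphomas in black below. The Mxd4 symbols reach 1.71, the Mnt symbols are all above 0, and the Mxi1 symbols are all at or below 0, of which 2 turn positive once arrays are centred on their median.

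Mnt and Mxi1 were the members with a single direction in all 5 lymphomas, Mnt higher and Mxi1 lower (Mxi1 in 3 of 5 once arrays were centred on their median), where 4.67% of all genes were higher in every lymphoma and 4.82% lower. Mnt is the broadly expressed antagonist that is present in cycling cells as well as resting ones. Its signals in ADR cells were 7.81 in lymphoma_1032, 8.999 in lymphoma_5783, 8.66 in lymphoma_7890, 8.62 in lymphoma_4936 and 8.94 in lymphoma_9250, against 7.62, 8.61, 8.64, 8.47 and 8.45 in untreated cells of the lymphomas in the same order. Mnt was lowest in lymphoma_1032 in both conditions, and the groups overlapped. The differences ran from 0.03 in lymphoma_7890 to 0.49 in lymphoma_9250, with a mean of 0.25 ± 0.19 (SD, n = 5), a 95% interval of -0.02 to 0.52 and an adjusted p of 0.579. The exact sign-flip permutation p was 0.0625, the smallest possible, which 5 differences of the same sign give whatever their size. The dimmer Mnt probe set, with a mean signal of 4.98, went the other way at -0.19 ± 0.28.

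Mxi1 (also called Mxd2) is a Max partner of the Mxd family. Its signals in ADR cells were 8.78 in lymphoma_1032, 8.55 in lymphoma_5783, 8.84 in lymphoma_7890, 9.49 in lymphoma_4936 and 8.98 in lymphoma_9250, against 8.93, 8.99, 9.11, 10.08 and 8.99 in untreated cells of the lymphomas in the same order. Mxi1 was highest in lymphoma_4936 in both conditions, and the groups overlapped. The differences were -0.58 in lymphoma_4936, -0.45 in lymphoma_5783, -0.27 in lymphoma_7890, -0.15 in lymphoma_1032 and -0.0025 in lymphoma_9250. They averaged -0.29 ± 0.23 (SD, n = 5), or 0.817-fold, with a 95% interval of -0.58 to -0.0035. The unadjusted p of limma was 0.0479 and the adjusted p 0.577. The exact sign-flip permutation p was 0.0625, again set by the shared sign alone. The other probe set of Mxi1 was lower in 4 of 5 lymphomas, with a mean difference of -0.44 ± 0.36. When each array was centred on its median, the brighter probe set was higher in lymphoma_9250 and lymphoma_1032, by 0.03 and 0.14, and lower in the other 3.

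Mxd1 and Mxd3 were lower on average, in each case through few lymphomas by the chosen probe set. The dimmer Mxd3 probe sets were lower in more lymphomas than the chosen one. Mxd1 (Mad1), first described as a Max partner that appears with differentiation, had signals in ADR cells of 6.74 in lymphoma_1032, 6.34 in lymphoma_5783, 6.19 in lymphoma_7890, 6.29 in lymphoma_4936 and 6.90 in lymphoma_9250. In untreated cells it had 7.05 in lymphoma_1032, 6.08 in lymphoma_5783, 6.15 in lymphoma_7890, 6.66 in lymphoma_4936 and 8.38 in lymphoma_9250. Untreated lymphoma_9250 stood highest, and the groups overlapped. The difference there was -1.48, and it lay between -0.37 and 0.26 in the other lymphomas. The mean of -0.37 ± 0.67 (SD, n = 5; adjusted p = 0.656 in limma) was -0.09 without lymphoma_9250. The next probe set gave -0.66 in lymphoma_9250 and -0.54 in lymphoma_1032, and the dimmest gave -0.98 in lymphoma_1032 and -0.31 in lymphoma_9250.

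Mxd3 (Mad3) is known from mouse cells as the family member found in S phase. Its signals in ADR cells were 5.20 in lymphoma_1032, 5.80 in lymphoma_5783, 5.93 in lymphoma_7890, 5.79 in lymphoma_4936 and 5.96 in lymphoma_9250, against 6.26, 6.19, 5.35, 5.66 and 6.30 in untreated cells of the lymphomas in the same order. Treated lymphoma_1032 and untreated lymphoma_7890 were the low ones, and the groups overlapped. The mean difference was -0.22 ± 0.61 (SD, n = 5; adjusted p = 0.767 in limma), with -1.06 in lymphoma_1032, and -0.010 without that lymphoma. The 3 Mxd3 probe sets had mean signals of 5.84, 5.81 and 5.70, so their choice by the mean rests on a narrow margin. The other 2 differed by -0.57 ± 0.85 and -0.34 ± 0.39, and both were lower in 4 lymphomas and higher in lymphoma_4936, by 0.43 and 0.30. The proliferation list had the signs of these dimmer probe sets by lymphoma, as 9.87% of all genes did, but not those of the chosen one, which was higher in lymphoma_7890 by 0.57. The medians of the list were -0.45 in lymphoma_1032, -1.005 in lymphoma_5783, -0.76 in lymphoma_7890, 0.65 in lymphoma_4936 and -0.44 in lymphoma_9250. Its 9 tested genes, Mki67 and Top2a among them, were all lower on average, and 0 of them passed the threshold. Their median was -0.27, and -0.59 without lymphoma_4936. The part of proliferation in the Mxd3 differences was not tested.

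**Figure D4:**
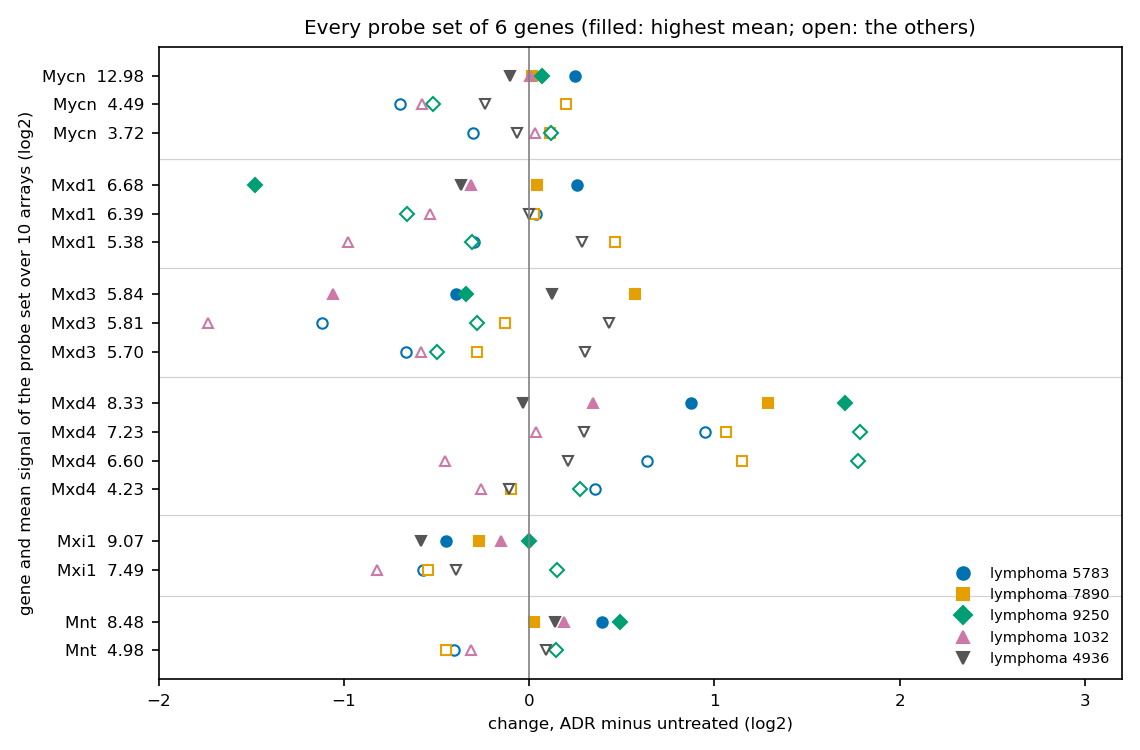
Difference of ADR minus untreated (log2) of every probe set of Mycn, Mxd1, Mxd3, Mxd4, Mxi1 and Mnt, labelled by the mean signal over 10 arrays, with 1 symbol per lymphoma. The 3 brighter Mxd4 probe sets share their order of lymphomas at the upper end, while the Mycn and Mnt probe sets differ from each other.

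Mga and Mlx had no common direction. Mga, a large protein that joins a Max-binding domain with a T-box and is a scaffold of the variant Polycomb complex PRC1.6, had signals between 6.54 and 8.70 in ADR cells and between 7.13 and 8.90 in untreated cells. It was lowest in lymphoma_1032 in both conditions. Differences ran from -0.58 in lymphoma_1032 to 0.29 in lymphoma_9250, with a mean of -0.07 ± 0.36 (SD, n = 5), or 0.014 with arrays centred on their median and 0.063 without lymphoma_1032, and a 95% interval of -0.43 to 0.29. Mlx, the partner of the Mondo proteins, had signals between 6.76 and 7.56 in ADR cells and between 6.43 and 7.56 in untreated cells. It was higher with ADR in 4 lymphomas and lower in lymphoma_1032, where the difference was -0.69, with a mean of 0.10 ± 0.46 and a 95% interval of -0.32 to 0.52. The mean was 0.30 without lymphoma_1032 and 0.0012 without lymphoma_9250. The other Mlx probe set averaged 0.0025 ± 0.35 and was higher in 2 of 5 lymphomas. The groups overlapped for both genes.

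Differences between lymphomas were larger than those with ADR for most of the network. The SD over the 5 untreated lymphomas exceeded the mean size of the ADR difference in 8 of the 10 genes. The exceptions were Mxd4, with an SD of 0.52 and a mean size of 0.85, and Mxd3, with 0.42 and 0.50. The median over all genes tested was 0.35 for that SD and 0.29 for that size. The share of all genes with the larger SD was not counted, so the 8 are not read as particular to the network. By lymphoma, 5 of the 10 members were higher with ADR in lymphoma_1032, 7 in lymphoma_5783, 8 in lymphoma_7890, 3 in lymphoma_4936 and 7 in lymphoma_9250. With arrays centred on their median the counts were 6, 8, 8, 4 and 8 in the same order. How many of all genes were higher in each lymphoma was not counted, so these counts are not read as particular to the network. In lymphoma_1032 the median difference of all genes tested was -0.17, against -0.02 to 0.06 in the other lymphomas.

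Genes that work with the network were read from the same fit, and 0 members of any of the lists passed the threshold in either direction. Of the 12 tested genes of the Sin3 corepressor that Mxd proteins and Mnt recruit, 2 were higher and 10 lower on average, with a median of -0.12. Ncor1, the only NCoR gene listed, and Sap18 were not found among the named probe sets. Ing2, a Sin3 complex subunit, differed by -0.56 ± 0.57 (SD, n = 5; adjusted p = 0.565 in limma) and was lower in 4 of 5 lymphomas. Ing1, a related subunit, differed by -0.24 ± 0.36 and the deacetylase gene Hdac2 by -0.17 ± 0.18. These members too were higher in lymphoma_4936, by 0.34, 0.28 and 0.04, the lymphoma in which the proliferation list was higher, and 9.87% of all genes had these signs. Of 7 tested partners of Mga in PRC1.6, 4 were higher and 3 lower, with a median of 0.13, or -0.02 without lymphoma_4936. Pcgf6, the subunit that defines the complex, was higher in all 5 lymphomas by 0.25 ± 0.12, and the ubiquitin ligase gene Ring1 was lower in all 5, with a difference of -0.46 ± 0.32. The adapter gene Yaf2 was also lower in all 5, at -0.27 ± 0.21. The adjusted p in limma was 0.565 for Ring1 and 0.577 for Pcgf6 and Yaf2.

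Myc cofactors and genes of Myc protein stability showed medians of -0.05 and -0.08, near that of all genes, and of 0.03 and 0.0050 with arrays centred on their median. Of 15 tested cofactors 6 were higher and 9 lower, among them the ATPase gene Ruvbl1 at 0.16 ± 0.32, and Ep400 and the acetyltransferase gene Kat5, at -0.14 ± 0.25 and -0.16 ± 0.37. Of 19 tested stability genes 9 were higher and 10 lower. Cip2a, an inhibitor of the phosphatase that destabilises Myc, differed by -0.48 ± 0.40 and the deubiquitinase gene Usp37 by -0.41 ± 0.43. Aurka, a mitotic kinase that binds N-Myc, differed by -0.46 ± 0.65. Each was lower in 4 of 5 lymphomas and higher in lymphoma_4936, as were 9.87% of all genes and the proliferation list. The part of proliferation in these genes was not tested. All 5 tested relatives of the network were higher on average, with a median of 0.12. In that list the E-box binding genes Usf1, Tfap4 and Usf2 differed by 0.22 ± 0.20, 0.21 ± 0.43 and 0.12 ± 0.18. Mycl and Mlxipl stayed below the filter.

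Targets were read as genes that textbooks place downstream of Myc or Mlx. Of 19 tested Myc-induced genes 12 were higher and 7 lower, with a median of 0.06. Apex1, a DNA repair endonuclease, differed by 0.34 ± 0.21, Cad, of pyrimidine synthesis, by 0.34 ± 0.38 and the spermidine synthase gene Srm by 0.28 ± 0.37, each higher in all 5 lymphomas. In lymphoma_1032 the difference was 1.02 for Cad and 0.93 for Srm, and in the other lymphomas it lay between 0.07 and 0.21 for both genes. The part of the lower median and higher maximum of the ADR array of lymphoma_1032 was not tested. Of 11 tested Myc-repressed genes 4 were higher and 7 lower, with a median of -0.11, which was 0.015 without lymphoma_9250 and -0.34 without lymphoma_7890. The cell cycle inhibitor gene Cdkn1a, which is also a p53 target, was higher in all 5 lymphomas by 0.60 ± 0.43, while Cdkn2c and Cdkn1b differed by -0.54 ± 0.58 and -0.52 ± 0.61. Medians of that list lay apart between lymphomas, at 0.76 in lymphoma_7890 and -0.59 in lymphoma_5783. Of 5 tested Mlx and Mondo targets 1 was higher and 4 lower, with a median of -0.22, or -0.48 without lymphoma_7890. Pfkfb3, an enzyme that sets the level of a glycolytic activator, differed by -0.36 ± 0.33, the pyruvate kinase gene Pklr by -0.18 ± 0.20 and Klf10 by -0.33 ± 0.61.

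**Figure D5:**
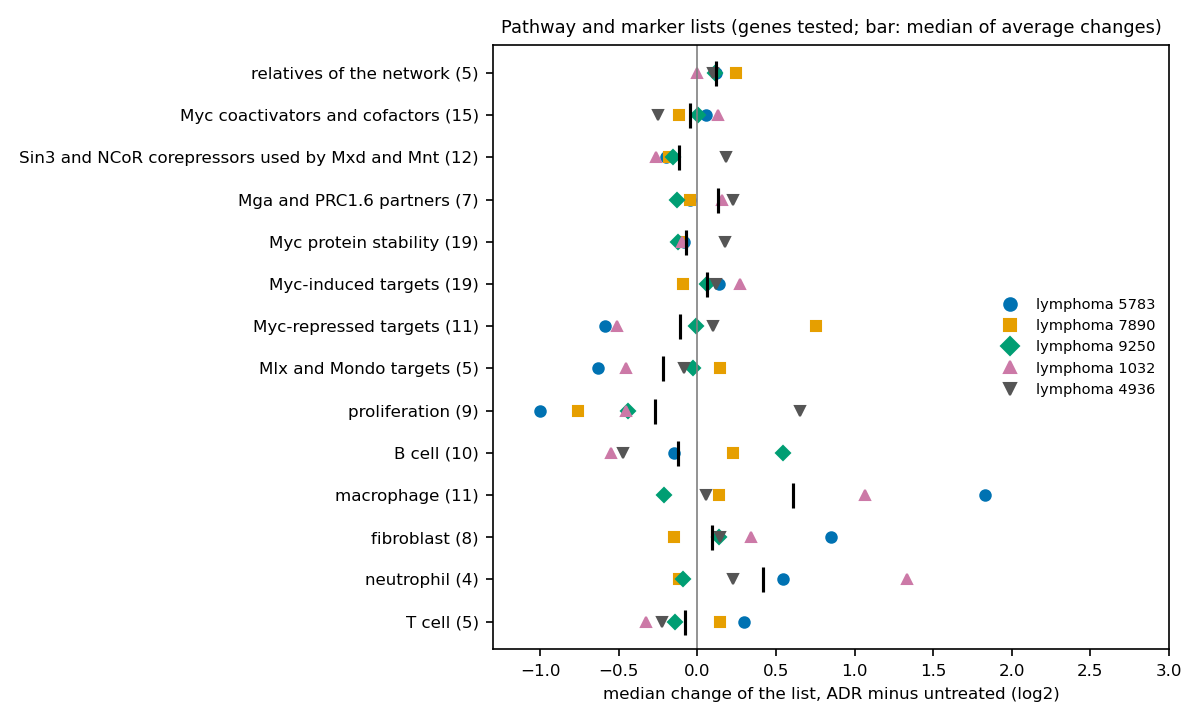
Median difference of ADR minus untreated (log2) of each pathway and marker list in each lymphoma, with the number of genes tested in brackets and a black bar for the median of the genes' average differences. Proliferation genes lie below 0 in 4 lymphomas and at 0.65 in lymphoma_4936, and macrophage markers reach 1.83 in lymphoma_5783.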

How the data were processed

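Each value of the deposited table is a log2 signal of a probe set on an array. The submitters' processing notes name RMA and Partek as what the authors used, with no settings. That the scale is log2 was read from the range of the values. Exactly 1 symbol was annotated for 34945 of 45101 probe sets, several for 932 and none for 9160. RefSeq held the gene IDs of 34741. A gene was tested when at least 5 of the 10 arrays were above 4.43, the median of the table.

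The paired fit used limma 3.58.1 (R 4.3.3), with the lymphoma as a block, two-sided, and p-values were adjusted by Benjamini-Hochberg over 11472 genes. Precision is limited by having 5 arrays a group. Titles in the labels pair the arrays by lymphoma. As a check, each pair's deviations from its group means were correlated over the genes, which gave 0.51 to 0.79. All 10 members are named, with the 3 tested genes of smallest p from each pathway list and the 5 nearest to Myc. Markers of other cells, some also named, include T-cell and neutrophil lists with median differences of -0.08 over 5 and 0.42 over 4 tested genes. Members and lists were chosen with earlier results of these data known. The fit was tested on simulated data. Python 3.11.15, pandas 2.3.3 and matplotlib 3.10.9 were used for tables and plots. The alternatives were no block, no filter, a filter set at percentile 70, averaging the probe sets of a gene, quantile normalization, centred arrays, array weights, another prior (trended, robust) and leaving out lymphomas.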

Additional observations from a re-analysis of the deposited data

Results flagged for a closer look

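In 30 sets of 5 values (the ADR signals, untreated signals and differences of the 10 genes), 4 held a lymphoma far from the others by Dixon's test, which by chance picks about 1 set in 20. The far value was from lymphoma_1032 in 3 of them. Mxd3 had a signal of 5.20 on the ADR array of lymphoma_1032, the lowest of the treated lymphomas, Mga had 6.54 on the same array, and Mnt had 7.62 on the untreated array of that lymphoma. Mxi1 had its highest untreated signal, 10.08, in lymphoma_4936. The ADR array of lymphoma_1032 had the lowest median of all arrays, 4.15.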

How the results depend on the processing

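No gene of all tested and no gene of the network passed the threshold under any of the 15 alternatives, those that leave out 1 lymphoma included, among the members tested in each (Mxd3 was not under the stricter filter, nor Mycn with the second probe set), so both counts stayed at 0 to 0. The smallest adjusted p of a network gene was 0.175, for Mxd4 without lymphoma_4936. Without the lymphoma as a replicate block the count was 0, and 262 genes had an unadjusted p below 0.05, against 973 with it. Of 148 recomputed differences 137 kept their sign. Fits without the block, with another filter or with another prior leave each average difference unchanged. They could not turn a sign, nor could other choices of probe set for Myc and Max, with 1 each. Mycn was -0.11 when the probe sets of a gene were averaged and -0.0053 without lymphoma_5783 and lymphoma_1032 together, and it ranged from -0.0032 without lymphoma_5783 to 0.084 without lymphoma_4936. Without lymphoma_5783 and lymphoma_1032 together Max was -0.10, Mxd3 0.12 and Mga 0.091. With the probe set of the second highest mean Mnt was -0.19 and Mga 0.056. Mga was also 0.014 with arrays centred on their median and 0.052 with array weights, and it ranged from -0.16 without lymphoma_9250 to 0.063 without lymphoma_1032. The cause was not tested. Mxd4 ranged from 0.62 to 1.05 when 1 lymphoma was left out and from 0.59 to 1.04 otherwise, and Mxi1 from -0.36 to -0.22 and from -0.44 to -0.21. Myc ranged from 0.21 without lymphoma_5783 to 0.45 without lymphoma_4936. The omission of both lymphomas and the probe set of the second highest mean were chosen after seeing the data. List medians moved by less than their spread between lymphomas in all 98 recomputations, but that spread is wide and some signs turned. The Mga partners were at -0.02 without lymphoma_4936, the Myc-repressed genes at 0.015 without lymphoma_9250 and the B-cell markers at 0.08 without lymphoma_1032. The Myc cofactors were at 0.025 without lymphoma_4936 and at 0.03 with centred arrays, which also put the stability genes at 0.0050. T-cell markers were at 0.012 without lymphoma_1032, 0.0024 without lymphoma_4936 and 0.00030 with centred arrays. The Myc-repressed median was -0.34 and the Mlx and Mondo target median -0.48 without lymphoma_7890, and proliferation was -0.59 without lymphoma_4936. Centring the arrays moved the median of all genes to 0.06.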
